A study of Homo sapiens with 10 samples.

Results

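The genes described here are 10 that specify primordial germ cells (PGCs) or mark their surface, namely SOX17, TFAP2C, PRDM1, SOX15, NANOS3, DPPA3, KIT, CD38, PDPN and ALPL. They were picked by name, and each was found once among the 64940 genes kept from the deposited expression table. Bulk RNA sequencing was available as 4 libraries of cells derived from H9, an established human embryonic stem cell (hESC) line. The 2 control libraries are labelled Normal, with genotype wt, and their cells are called SD cells that had differentiated spontaneously. The 2 oeDAZL libraries carry oeDAZL as both genotype and treatment, which is overexpression of DAZL, an RNA-binding protein of germ cells, and their cells are called hPGCLCs (human PGC-like cells). The design text, unlike the labels, calls both groups PGCLCs. In the study's methods, overexpression experiments place cells in BMP4 and BMP8a and then add lentivirus, with GFP virus as the control where a control is described, and a supplementary legend calls both groups of this RNA sequencing hPGCLCs. The labels of the control libraries name neither BMP nor virus, so the sources used here disagree on how these cells were treated, and whether the sequenced cells were sorted is not given in them. The comparison asks how far the cultures express a germ cell programme and whether oeDAZL shifts it.

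In the human embryo, BMP and WNT signals induce SOX17, which acts upstream of PRDM1, and together with TFAP2C these factors install the germ cell fate while holding back somatic genes. Early PGCs keep POU5F1 and NANOG but switch off SOX2, and NANOS3 protects them from death. None of the surface markers belongs to germ cells alone, so PGCs are usually recognised by a combination of them.

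Expression was given as TPM, a measure of transcript abundance that is scaled to a fixed total and by transcript length, and that can be compared between genes of a library. DAZL itself was near absent from control (0 and 0.0333 TPM) and abundant in oeDAZL (102 and 101 TPM), so the libraries match their labels. The control libraries were less alike than the oeDAZL libraries. Across the 16687 genes with a mean of at least 1 TPM, which are not independent of each other, Pearson's r of log2(TPM + 1) was 0.987 between the 2 control libraries and 0.991 between the 2 oeDAZL libraries, whereas control 1 reached 0.980 and 0.983 with the oeDAZL libraries and control 2 reached 0.987 and 0.988. Control 1 therefore stood farthest out, and values without it are given beside several results. Nothing in the labels says that replicates came from separate cultures, so p-values measure only the spread between these libraries, which may be technical.

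The 10 genes fell into 4 ranges of expression. SOX15, TFAP2C, PDPN and ALPL lay between 32.9 and 73.2 TPM in the 4 libraries. KIT lay between 6.23 and 7.70 TPM. SOX17, PRDM1, DPPA3 and NANOS3 lay between 0.716 and 3.35 TPM, and CD38 did not exceed 0.160 TPM. The low members include SOX17 and PRDM1, at the top of the PGC network, and NANOS3, the most germ cell-restricted of the 10. Ordered by their mean over the libraries, neighbours were separated by more than their ranges from SOX15 (64.4 TPM) to TFAP2C (49.4 TPM), from ALPL (47.1 TPM) to KIT (6.65 TPM) and SOX17 (2.92 TPM), from SOX17 to PRDM1 (1.92 TPM), and from NANOS3 (1.21 TPM) to CD38 (0.0886 TPM). The ranges of TFAP2C, PDPN (48.4 TPM) and ALPL overlapped, as did those of PRDM1, DPPA3 (1.38 TPM) and NANOS3. In bulk RNA, a small number of cells with high expression and a low level in every cell cannot be told apart.

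**Figure D1:**
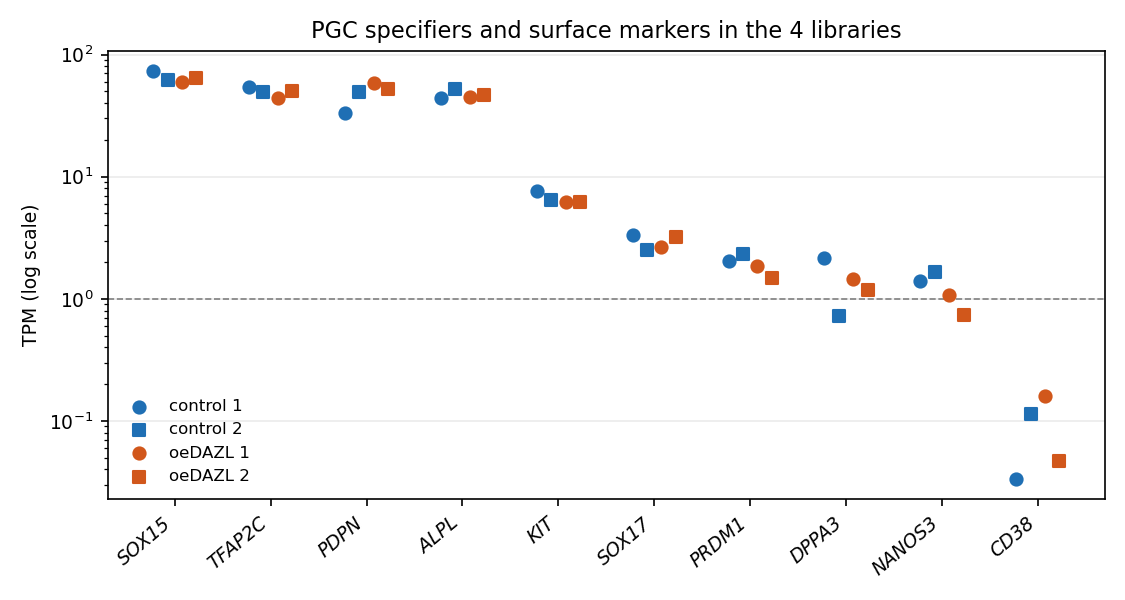
TPM of the 10 PGC specifiers and surface markers (log scale) in each library, ordered by mean; circles and squares are replicates 1 and 2 of control (blue) and oeDAZL (orange), and the dashed line marks 1 TPM. SOX15 reached 73.2 TPM and CD38 stayed at or under 0.160 TPM, and the PDPN value of control 1 (32.9 TPM) lay apart from its other values.

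No member was called in the comparison of oeDAZL with control. Called genes had at least a 2-fold change and an unadjusted P of at most 0.05 in limma on log2(TPM + 1), a scale that understates the change of low genes. CD38 was under the filter on low values, so 9 of the 10 members were tested. Of these, 0 were called, against 21 called higher (0.126%) and 94 called lower (0.563%) of all 16687 tested genes (41 higher and 52 lower with quantile normalization). Shares this small leave less than 1 call to be found among 9 genes, so a count of 0 sets the members apart in no way. After Benjamini-Hochberg adjustment in limma, 0 members and 10 of all tested genes (0.0599%) were under 0.05. At an unadjusted P of at most 0.05, whatever the fold, limma gave 1 member (PDPN) and 3368 of all tested genes (20.2%). The groups did not overlap for 4 of the 9 members (PRDM1, NANOS3, KIT and PDPN) and for 9079 of all tested genes (54.4%).

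As deposited, 8 tested members were lower and 1 was higher in oeDAZL, but SOX17, DPPA3 and ALPL turned to higher with median-of-ratios scaling between libraries. The median log2 fold change of the 9 members was −0.12, against −0.08 over all tested genes, of which 65.3% were lower. The median size of the change, regardless of sign, was 0.13 for the members and 0.15 for all tested genes. Summed over the 10 members, expression was 221 and 227 TPM in the control libraries and 220.5 and 226 TPM in the oeDAZL libraries, with SOX15 taking 28.8% of the total. With 2 libraries in each group, the smallest p of an exact permutation test is 0.333, and none was run on single genes.

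**Figure D2:**
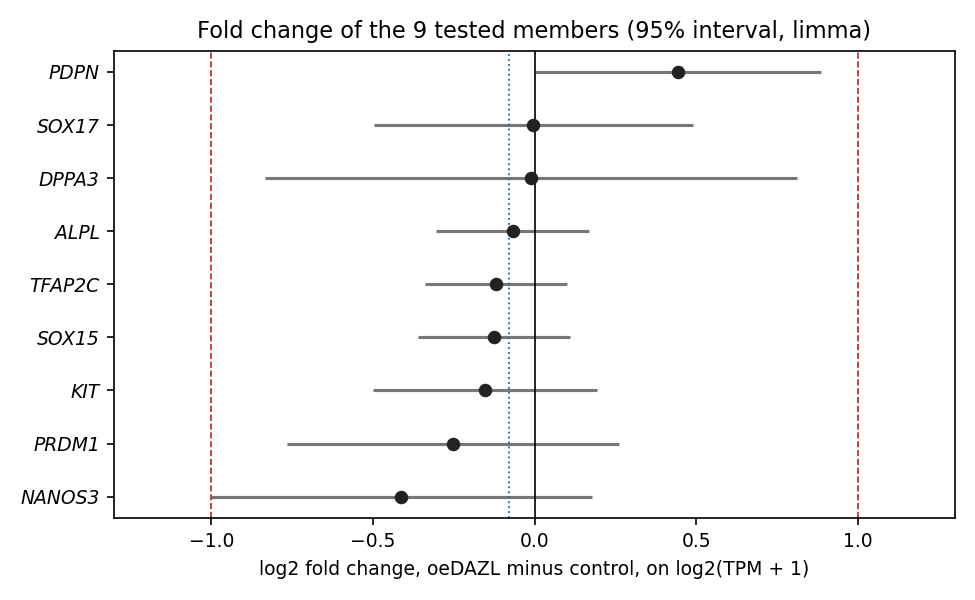
Log2 fold change (oeDAZL minus control, on log2(TPM + 1)) of the 9 tested members, with 95% intervals from limma; red dashed lines mark a 2-fold change in either direction and the blue dotted line the median of all tested genes (−0.08). Estimates ran from −0.41 for NANOS3 to 0.44 for PDPN, and those of SOX17, DPPA3 and ALPL, all close to 0, changed sign with median-of-ratios scaling.

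SOX17 (ENSG00000164736.6) encodes the SRY-box factor that is needed to start the human germ cell programme and that also drives endoderm and vessel development. It lies on the forward strand at chr8:54457935-54460892 (GENCODE 44, hg38). SOX17 was at 3.35 and 2.52 TPM in control and at 2.63 and 3.19 TPM in oeDAZL. Both oeDAZL values lay between the control values. Its log2 fold change was −0.0036 (standard error, SE, 0.20, 95% interval −0.50 to 0.49), with an adjusted p of 0.995 in limma. Among genes with a TPM above 0, SOX17 stood at the 52.5 and 49.6 percentiles in the control libraries and at the 49.7 and 52.6 percentiles in the oeDAZL libraries.

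Genes of other cell types that use SOX17 lay both above and below the level of SOX17. Of the 10 endoderm genes listed for comparison, 9 were tested, with 2 higher and 7 lower in oeDAZL, a median log2 fold change of −0.22 and 1 called lower. For 0 higher and 3 lower endoderm genes limma gave an unadjusted P of at most 0.05, and for 0 an adjusted one. Together they summed to 140.3 and 74.9 TPM in control and to 64.7 and 78.2 TPM in oeDAZL, with TTR, a transport protein of visceral endoderm and liver, taking 34.7%. Control 1 alone stood apart in this sum, and without it the median of the endoderm list was −0.01 (from −0.41 to −0.01 over all alternatives run). The gene called lower was AFP, the fetal serum protein of yolk sac and liver, at 36.3 and 13.1 TPM in control and at 8.91 and 11.6 TPM in oeDAZL. Its highest value was again that of control 1. AFP had a log2 fold change of −1.04 (SE 0.42) with an unadjusted p of 0.0480 and an adjusted p of 0.243 in limma. The change was −0.34 without control 1, and AFP lost its call in most of the alternatives run. Where the call was lost with all libraries kept, the log2 fold change still lay between −1.04 and −0.94. CER1, an inhibitor secreted by anterior endoderm that was picked after its values were seen, did not rest on control 1, at 4.53 and 3.71 TPM in control and at 1.55 and 1.84 TPM in oeDAZL. For CER1 the log2 fold change was −0.92 (SE 0.19) with an unadjusted p of 0.00293 and an adjusted p of 0.104 in limma, −0.81 without control 1, and −1.23 and called lower with a pseudocount of 0.1.

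FOXA2, a definitive endoderm factor that human PGCs lack, was at 1.16 and 1.12 TPM in control and at 1.25 and 1.31 TPM in oeDAZL, below SOX17 in every library. GATA6, a factor of primitive endoderm, amnion and mesoderm, was 2.72 to 3.48 times as abundant as SOX17. Of the 10 genes listed for endothelium and blood, 4 were tested, with 2 higher and 2 lower, a median log2 fold change of −0.25 (from −0.55 to −0.02 over all alternatives run) and 0 called. For this list limma gave 2 lower genes at an unadjusted P of at most 0.05 and 0 after adjustment. Its genes summed to 48.4 and 39.1 TPM in control and to 27.2 and 28.8 TPM in oeDAZL, and SOX7, a paralog of SOX17 in the same subfamily, took 46.3% of it. SOX7 was at 27.9 and 17.0 TPM in control and at 10.7 TPM in both oeDAZL libraries, with a log2 fold change of −0.96 (SE 0.22) and an adjusted p of 0.111 in limma, −0.62 without control 1, and −1.02 and called lower with a pseudocount of 0.1. KDR, of the same list, was at 12.6 and 12.7 TPM in control and at 8.39 and 8.23 TPM in oeDAZL. Its log2 fold change was −0.55 with an adjusted p of 0.0962 in limma. TEK lay between 5.34 and 6.72 TPM and CDH5 between 1.92 and 2.56 TPM in the 4 libraries. The endothelial adhesion gene PECAM1 and the embryonic globin HBE1 were listed at 0 in all 4 libraries, and TAL1, GATA1 and PTPRC did not exceed 0.401 TPM. SOX18, the remaining gene of the SOX17 subfamily, did not exceed 0.485 TPM. How much of the SOX17 signal came from any of these cell types was not tested.

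TFAP2C (ENSG00000087510.7) encodes AP-2 gamma, which opens chromatin at germ cell and naive pluripotency enhancers and is also expressed in trophoblast, amnion and surface ectoderm. It lies on the forward strand at chr20:56629306-56639283. The control libraries had 53.9 and 49.1 TPM and the oeDAZL libraries 44.3 and 50.4 TPM of TFAP2C. The groups overlapped, with oeDAZL 1 lowest and control 1 highest. The log2 fold change was −0.12 (SE 0.09, 95% interval −0.34 to 0.10) with an adjusted p of 0.489 in limma, −0.05 without control 1, −0.03 without oeDAZL 1 and −0.21 without oeDAZL 2. TFAP2C was 15.8 to 19.5 times as abundant as SOX17 within a library.

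TFAP2A, an AP-2 paralog of amnion, trophoblast and neural crest, was at 170.1 and 149 TPM in control and at 156 and 164 TPM in oeDAZL. It exceeded TFAP2C in every library, by 3.04 to 3.52 times. TFAP2E, another paralog, was at 2.56 and 1.54 TPM in control and at 3.36 and 3.06 TPM in oeDAZL, a log2 fold change of 0.48 with an adjusted p of 0.299 in limma. The 11 genes listed for amnion and trophoblast were all above the filter. In oeDAZL 4 of them were higher and 7 lower, with 1 called lower, and their median log2 fold change was −0.06 as deposited, −0.10 with quantile normalization, −0.17 without control 2 and 0.02 with median-of-ratios scaling. An unadjusted P of at most 0.05 in limma was found for 2 higher and 4 lower genes, and an adjusted one for 0.

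The amnion and trophoblast list summed to 3662 and 3517 TPM in control and to 3722 and 3769 TPM in oeDAZL, which is 16.6, 15.5, 16.9 and 16.7 times the sum of the 10 PGC members in the same libraries. Both oeDAZL ratios lay above both control ratios, by a margin smaller than the gap within control, and the difference was not tested. GABRP, a GABA receptor subunit abundant in amnion, took 34.9% of the list, with 1408 and 1208 TPM in control and 1221 and 1276 TPM in oeDAZL, 399 to 479.6 times the level of SOX17. HAND1, a factor of amnion, trophoblast and extraembryonic mesoderm, was at 958 and 1042 TPM in control and at 1250.0 and 1247 TPM in oeDAZL, with an adjusted p of 0.0918 in limma. CGA, the alpha subunit of chorionic gonadotropin, was the gene called lower, at 15.5 and 10.4 TPM in control and at 4.34 and 5.82 TPM in oeDAZL. Both oeDAZL values were under both control values, and its log2 fold change was −1.18 (SE 0.22) with an adjusted p of 0.0896 in limma, but without control 1 it was −0.92 and not called. No marker of the list was at 0, and what share of the TFAP2C transcripts came from such cells was not tested.

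**Figure D3:**
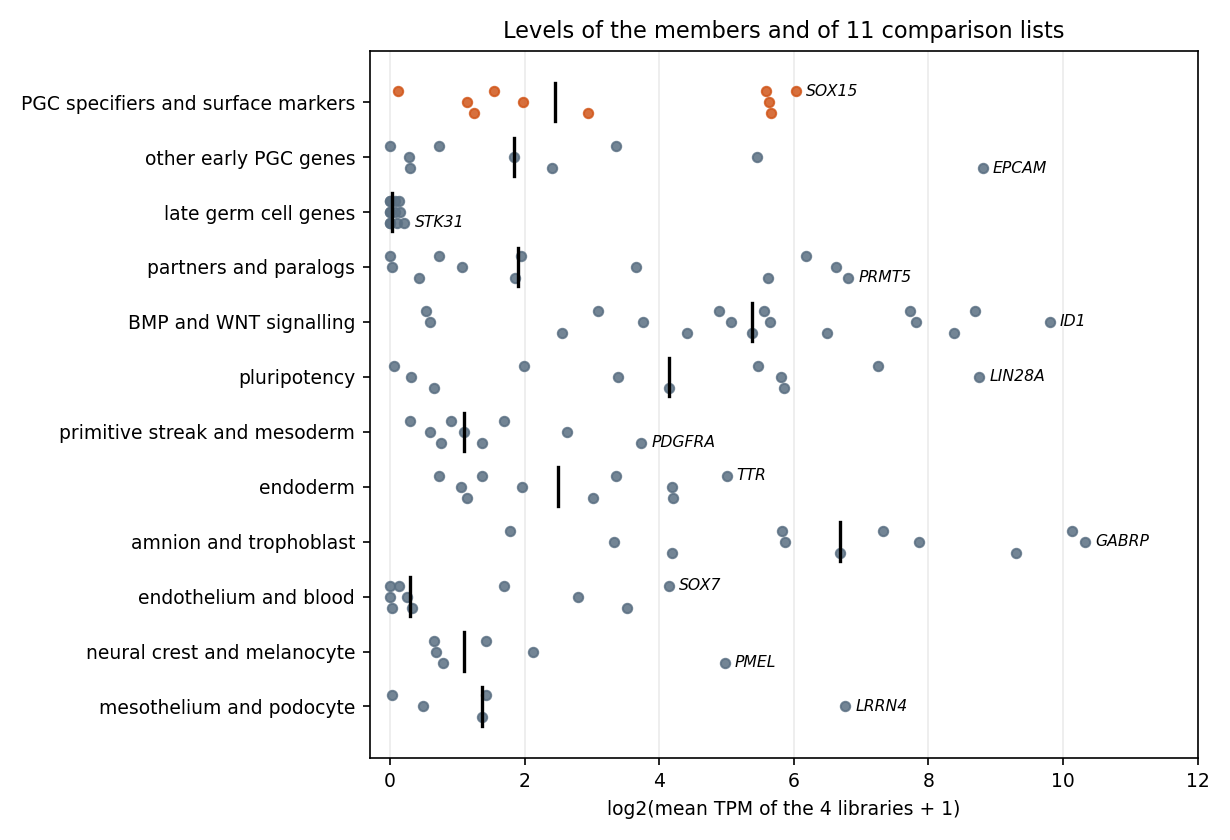
Level of each gene, as log2(mean TPM of the 4 libraries + 1), for the 10 PGC specifiers and surface markers (orange) and 11 comparison lists (grey); vertical bars are list medians and the most abundant gene of each list is named. The amnion and trophoblast genes reach highest, led by GABRP at 1208 to 1408 TPM, while the late germ cell genes lie close to 0.

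PRDM1 (ENSG00000057657.17) encodes BLIMP1, a repressor that shuts down somatic genes in nascent PGCs, and lies at chr6:105993463-106109939 on the forward strand, where it overlaps ATG5 on the opposite strand without sharing exonic bases. It was at 2.03 and 2.32 TPM in control and at 1.87 and 1.47 TPM in oeDAZL. Both oeDAZL libraries were under both control libraries, by a margin smaller than the gap within either group. The log2 fold change of PRDM1 was −0.25 (SE 0.21, 95% interval −0.77 to 0.26), with an adjusted p of 0.535 in limma, and ran from −0.37 with a pseudocount of 0.1 to −0.07 with quantile normalization.

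SOX15 (ENSG00000129194.7) encodes an SRY-box factor that takes part in maintaining PGCs once they are specified and that is also expressed in epithelia. It was the most abundant member, with 73.2 and 61.6 TPM in control and 59.2 and 63.7 TPM in oeDAZL, and it stood at the 89.3 to 91.7 percentiles of expressed genes. Control 1 was highest, and control 2 lay between the oeDAZL values. The log2 fold change of SOX15 was −0.13 (SE 0.10, 95% interval −0.36 to 0.11) with an adjusted p of 0.496 in limma. Its size depended on the controls kept, being −0.0034 without control 1 and −0.25 without control 2. SOX15 lies on the reverse strand at chr17:7588178-7590094, inside MPDU1 on the opposite strand, and 35 of its exonic bases (2.39%) are shared with MPDU1, which was at 91.3 and 94.9 TPM in control and at 82.4 and 87.3 TPM in oeDAZL. Whether reads were counted by strand is not given in the sources used here, so reads over the shared bases cannot be told apart.

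Of the regulators that act later, NANOS3 (ENSG00000187556.7) encodes an RNA-binding repressor that is almost restricted to germ cells. It was at 1.39 and 1.66 TPM in control and at 1.07 and 0.732 TPM in oeDAZL. The oeDAZL libraries were both under the control libraries, and oeDAZL 2 was under 1 TPM. NANOS3 had the lowest estimate of the 9 tested members, a log2 fold change of −0.41 (SE 0.24, 95% interval −1.0 to 0.18) with an adjusted p of 0.386 in limma. It stayed negative under every alternative run, between −0.71 with a pseudocount of 0.1 and −0.25 with quantile normalization. Its paralog NANOS1 was at 2.06 and 2.94 TPM in control and at 3.56 and 2.84 TPM in oeDAZL, above NANOS3 in every library, and NANOS2, a paralog of male germ cells, did not exceed 0.0770 TPM.

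Sequence is shown for NANOS3 and PRDM1 because, among the members, they are the germ cell regulators whose oeDAZL libraries both lay below control. NANOS3 also carries miRNA genes. NANOS3 spans chr19:13862063-13880757 on the forward strand (GENCODE 44, hg38), and its introns hold MIR181C and MIR181D on the same strand without shared exonic bases. Their mature forms, from RefSeq (GRCh38.p14), lie at chr19:13874725-13874746 and chr19:13874910-13874932 and have the same seed, bases 2 to 8, in capitals.
hsa-miR-181c-5p: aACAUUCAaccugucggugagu
hsa-miR-181d-5p: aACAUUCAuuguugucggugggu
The MIR181C entry was at 0 and 0.302 TPM in control and at 0 in both oeDAZL libraries, and MIR181D was at 0 and 0.0121 TPM in control and at 0.851 and 0 TPM in oeDAZL, values of hairpin genes in RNA sequencing that say nothing of the mature miRNAs. The windows below run from 250 bases before to 50 after an annotated start (RefSeq, GRCh38.p14, forward strand), for NANOS3 at chr19:13876884-13877183 and for PRDM1 at chr6:106086086-106086385, with matches to the AP-2 motif GCCNNNGGC, which reads the same on both strands, in capitals.
NANOS3: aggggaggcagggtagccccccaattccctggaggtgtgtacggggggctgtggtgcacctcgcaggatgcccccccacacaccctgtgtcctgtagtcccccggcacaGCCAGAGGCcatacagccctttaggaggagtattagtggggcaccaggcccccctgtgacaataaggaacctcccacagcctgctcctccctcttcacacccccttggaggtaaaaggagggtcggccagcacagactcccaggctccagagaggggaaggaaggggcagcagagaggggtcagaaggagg
PRDM1: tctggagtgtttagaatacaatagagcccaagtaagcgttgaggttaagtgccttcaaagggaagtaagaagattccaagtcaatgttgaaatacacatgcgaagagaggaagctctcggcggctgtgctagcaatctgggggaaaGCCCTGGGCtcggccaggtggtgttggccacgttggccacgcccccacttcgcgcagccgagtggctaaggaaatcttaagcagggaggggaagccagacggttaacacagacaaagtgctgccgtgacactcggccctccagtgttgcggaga
Of the members other than SOX17, 7 matched the promoter table, with 14 windows, and 5 windows of 3 genes (ALPL, NANOS3 and PRDM1) held the motif. It occurs in 8146 of all 35116 windows of this length (23.2%). The 2 windows shown were picked among those of their genes that hold the motif. For NANOS3, the window at chr19:13864953-13865252 held 0 matches and that at chr19:13861786-13862085 held 2. TFAP2C and SOX15 had no entry. SOX17 was left out of this search, so whether it has windows that hold the motif was not tested.

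DPPA3 (ENSG00000187569.3) encodes STELLA, which is found in PGCs, oocytes and naive pluripotent cells and binds UHRF1 to limit maintenance of DNA methylation. It lies at chr12:7711433-7717559 on the forward strand. DPPA3 was at 2.17 and 0.716 TPM in control and at 1.45 and 1.19 TPM in oeDAZL. Both extremes came from the control libraries, with the oeDAZL values between them. Its log2 fold change was −0.01 (SE 0.34, 95% interval −0.83 to 0.81), with an adjusted p of 0.990 in limma. It was 0.43 without control 1 and −0.45 without control 2. With both control libraries kept, its direction also turned under some alternatives, such as quantile normalization (0.17). DPPA3 pseudogenes, which could share its reads, were listed at no more than 0.0517 TPM. UHRF1 was at 46.3 and 52.3 TPM in control and at 47.4 and 46.0 TPM in oeDAZL.

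Of the surface markers, KIT (ENSG00000157404.15) encodes the receptor of KITLG, on which migrating PGCs, melanoblasts and blood progenitors depend, and lies at chr4:54657267-54740783 on the forward strand. KIT was at 7.70 and 6.44 TPM in control and at 6.23 and 6.24 TPM in oeDAZL. The oeDAZL values were almost equal and lay just under control 2. The log2 fold change of −0.15 (SE 0.14, 95% interval −0.50 to 0.19) had an adjusted p of 0.578 in limma. Its size depended on the controls kept, being −0.04 without control 1 and −0.27 without control 2, and was −0.03 with quantile normalization. Its ligand KITLG was at 11.4 and 11.5 TPM in control and at 11.02 and 12.6 TPM in oeDAZL, 1.48 to 2.02 times the level of KIT.

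Of 6 neural crest and melanocyte genes, which mark other KIT-expressing cells, 3 were tested, with 2 higher, 1 lower, 0 called and a median log2 fold change of 0.08 (0.17 without control 1, −0.01 without control 2 and −0.28 without the filter), and limma gave 0 at an unadjusted P of at most 0.05 and 0 after adjustment. Summed levels were 41.1 and 34.1 TPM in control and 36.9 and 37.3 TPM in oeDAZL, and PMEL, a melanosome protein, took 81.3%. The neural crest factor SOX10 was at 1.77 and 0.259 TPM in control and at 0.132 and 0.288 TPM in oeDAZL. FOXD3, a further neural crest factor, was at 1.79 and 0.155 TPM in control and at 0.184 and 0.159 TPM in oeDAZL. Both factors were thus highest in control 1, the library with the highest KIT, though under 2 TPM there, and at 0.288 TPM or less elsewhere. The rest of the list was mixed. TYRP1 was also highest in control 1 (1.09 TPM), whereas MITF was lowest there (1.25 TPM). PAX3 was at 3.71 and 3.70 TPM in control. PMEL was at 31.5 and 27.6 TPM in control and at 31.3 and 31.1 TPM in oeDAZL. The part of such cells in the KIT values was not tested.

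CD38 (ENSG00000004468.13), a NAD-consuming ectoenzyme used to sort human PGCLCs, lies at chr4:15778275-15853232 on the forward strand. It was listed at 0.0336 and 0.115 TPM in control and at 0.160 and 0.0468 TPM in oeDAZL. The groups overlapped, and CD38 stood at only the 3.35 and 11.3 percentiles of expressed genes in the control libraries and the 15.003 and 5.44 percentiles in the oeDAZL libraries. It was not tested, since its mean was under 1 TPM. Its paralog BST1 was also under 1 TPM, at 0.377 to 0.804 TPM.

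PDPN (ENSG00000162493.16) encodes podoplanin, a mucin-like glycoprotein of PGCs, podocytes, mesothelium, lymphatic vessels and amniotic epithelium, and lies at chr1:13583465-13617957 on the forward strand. It was at 32.9 and 49.7 TPM in control and at 58.5 and 52.5 TPM in oeDAZL. PDPN was the only tested member with a higher mean in oeDAZL under the values as deposited, and control 1 lay well under the other libraries. PDPN had a log2 fold change of 0.44 (SE 0.18, 95% interval 0.000296 to 0.89), with an unadjusted p of 0.0499 and an adjusted p of 0.248 in limma. The log2 fold change was 0.15 without control 1 and 0.73 without control 2. Over all alternatives run, PDPN stayed positive, between 0.15 and 0.73, and its size therefore depends mainly on 1 control library.

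Of 5 mesothelium and podocyte genes, which mark other PDPN-expressing cells, 3 were tested, with 2 higher, 1 lower, 0 called and a median log2 fold change of 0.08, which was 0.22 without control 1, −0.05 without either control 2 or oeDAZL 1 and −0.55 with a filter at 5 TPM, so that its direction is not settled. At an unadjusted P of at most 0.05 limma gave 1 higher and 1 lower, and 0 after adjustment. In sum they reached 142 and 119.6 TPM in control and 85.7 and 97.1 TPM in oeDAZL, and LRRN4, a membrane protein of mesothelial cells, took 96.7%. LRRN4 was lower where PDPN was higher, at 139 and 117 TPM in control and at 81.0 and 93.1 TPM in oeDAZL. Its log2 fold change was −0.55 (SE 0.10) with an adjusted p of 0.0951 in limma. WT1, a factor of mesothelium, podocytes and gonadal ridge, was at 1.15 and 0.781 TPM in control and at 2.59 and 2.24 TPM in oeDAZL, with a log2 fold change of 0.80 and an adjusted p of 0.155 in limma, and 1.26 and called higher with a pseudocount of 0.1. The slit diaphragm gene NPHS1 did not exceed 0.0828 TPM, and the part of these cells in the PDPN values was not tested.

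ALPL (ENSG00000162551.14), tissue-nonspecific alkaline phosphatase, is the enzyme behind the classical staining of PGCs and is shared with pluripotent stem cells and bone. It lies at chr1:21509397-21578410 on the forward strand and shares 25 exonic bases (0.839%) with an overlapping gene model on the same strand. The control libraries had 44.01 and 52.7 TPM of ALPL and the oeDAZL libraries 45.1 and 46.7 TPM. The oeDAZL values lay between those of control. For ALPL the log2 fold change was −0.07 (SE 0.10, 95% interval −0.30 to 0.17), with an adjusted p of 0.732 in limma. Among its paralogs, the placental enzyme ALPP was at 0.792 to 1.35 TPM, ALPG did not exceed 0.527 TPM and the intestinal ALPI was listed at 0 in all 4 libraries. ALPL was 32.7 to 58.9 times as abundant as ALPP, so alkaline phosphatase transcripts came almost wholly from ALPL.

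**Figure D4:**
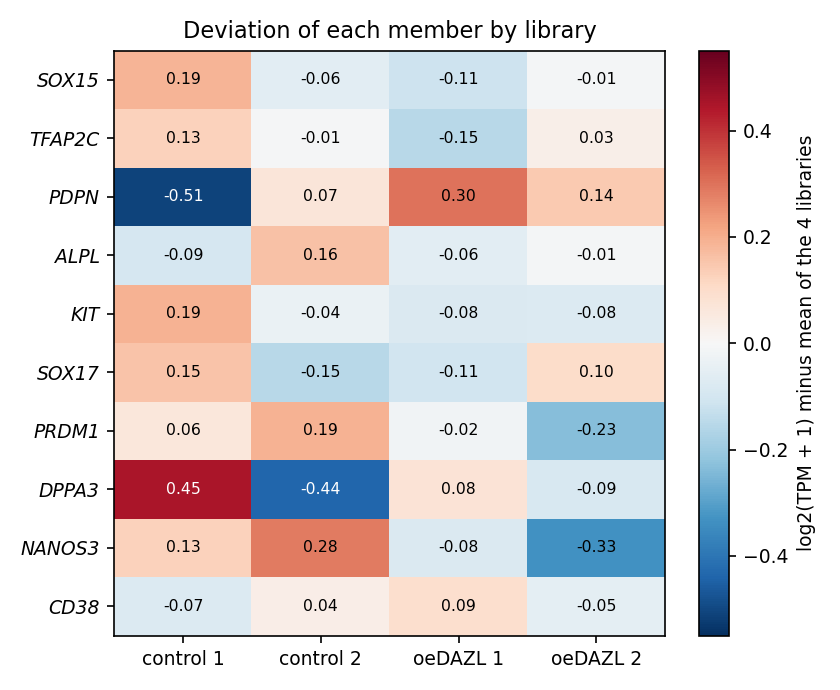
Deviation of log2(TPM + 1) of each member in each library from its mean over the 4 libraries; red is above and blue below the mean. PDPN in control 1 (−0.51) and DPPA3 in control 1 (0.45) and control 2 (−0.44) deviate most, followed by NANOS3 in oeDAZL 2 (−0.33).

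Partners and paralogs of the members form a list of 12 genes, of which 8 were tested. In oeDAZL 5 were higher and 3 lower, with a median log2 fold change of 0.02 as deposited (from −0.0021 to 0.10 over all alternatives run). None was called, and limma gave 0 at an unadjusted P of at most 0.05 and 0 after adjustment. Their sum was 347 and 341 TPM in control and 351 and 352 TPM in oeDAZL. Its most abundant gene was PRMT5 (31.9%), an arginine methyltransferase that acts with PRDM1 in mouse PGCs, at 106 and 107 TPM in control and at 115 and 116 TPM in oeDAZL. Both oeDAZL libraries were higher, with a log2 fold change of 0.12 and an adjusted p of 0.283 in limma.

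Other genes of early PGCs gave a mixed picture. Of 9 such genes 5 were tested, with 3 higher, 2 lower, 0 called and a median log2 fold change of 0.11, which was −0.05 without control 1 and ran up to 0.18 with quantile normalization. In limma 1 higher and 0 lower genes had an unadjusted P of at most 0.05, and 0 an adjusted one. PRDM14, which represses somatic genes in PGCs, was at 0.467 and 0.305 TPM in control and at 0 and 0.128 TPM in oeDAZL. DPPA5 was listed at 0 in all 4 libraries, and UTF1 and DND1, an RNA-binding protein that works with NANOS3, stayed under 1 TPM. The list summed to 477 and 456 TPM in control and to 557 and 534 TPM in oeDAZL, of which 88.1% was EPCAM, an adhesion molecule of epithelia and stem cells that is used with ITGA6 to sort PGCLCs. EPCAM was at 422 and 392 TPM in control and at 494 and 476 TPM in oeDAZL. Both oeDAZL libraries were higher, with a log2 fold change of 0.25 (SE 0.06) and an adjusted p of 0.116 in limma. ITGA6 was at 36.1 and 46.1 TPM in control and at 46.1 and 42.8 TPM in oeDAZL, with oeDAZL 2 between the control values.

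Genes of later germ cells were near 0 in both groups. Of 12 such genes in the table, 0 reached a mean of 1 TPM and so 0 were tested. DDX4, the germ cell RNA helicase VASA, and SYCP1, PIWIL1, TDRD9 and GTSF1 were listed at 0 in all 4 libraries. The whole list summed to 0.473 and 0.409 TPM in control and to 0.715 and 0.596 TPM in oeDAZL, and STK31 was its most abundant gene (29.2%). These sums are under the level of any single member except CD38.

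Pluripotency genes, which PGCs keep in part, were tested for 8 of 11, with 4 higher, 4 lower and 0 called. Their median log2 fold change was −0.02 as deposited and 0.06 with median-of-ratios scaling, and limma gave 3 higher and 1 lower at an unadjusted P of at most 0.05 and 0 after adjustment. The list summed to 811 and 748 TPM in control and to 766 and 740.3 TPM in oeDAZL, and LIN28A, an RNA-binding protein of stem cells and PGCs, took 56.2%. POU5F1, the OCT4 gene, was at 13.6 and 10.6 TPM in control and at 22.4 and 20.4 TPM in oeDAZL. Both oeDAZL libraries were higher, and the log2 fold change was 0.79 (SE 0.14) with an adjusted p of 0.0896 in limma, although POU5F1 has near-identical pseudogenes that could share its reads. The table holds 6 further entries of the symbol POU5F1, all at 0. NANOG, its partner in stem cells and PGCs, was at 0.432 and 0.507 TPM in control and at 0.813 and 0.532 TPM in oeDAZL. SOX2, which human PGCs switch off, was at 5.16 and 2.57 TPM in control and at 2.16 and 2.04 TPM in oeDAZL. Control 1 was highest for SOX2, and the log2 fold change was −0.60 (SE 0.29) with an adjusted p of 0.300 in limma, and −0.20 without control 1.

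POU5F1 was 6.38 to 9.78 times as abundant as NANOS3 in control and 21.0 to 27.9 times in oeDAZL. In oeDAZL, POU5F1 was at higher and NANOS3 at lower values, and neither passed adjustment in limma; the difference of the ratio itself was not tested. Set against the label of hPGCLCs, the oeDAZL libraries held TFAP2C, SOX15, PDPN and ALPL at 44.3 TPM or more and KIT at 6.23 and 6.24 TPM, while SOX17 was at most 3.19 TPM, PRDM1 at most 1.87 TPM, DPPA3 at most 1.45 TPM, NANOS3 at most 1.07 TPM and CD38 at most 0.160 TPM. The control libraries, labelled as spontaneously differentiated, held the former 4 at 32.9 TPM or more and KIT at 7.70 and 6.44 TPM, while SOX17 was at most 3.35 TPM, PRDM1 at most 2.32 TPM, DPPA3 at most 2.17 TPM, NANOS3 at most 1.66 TPM and CD38 at most 0.115 TPM. Beyond the members, EPCAM, LIN28A and POU5F1, which PGCs also express, were at 10.6 TPM or more in all 4 libraries, and NANOG was at 0.813 TPM or less. Of the other early PGC genes listed, TFCP2L1, KLF4, CXCR4 and ITGA6 lay between 2.32 and 46.1 TPM. PRDM14, UTF1 and DND1 were at 0.952 TPM or less, and DPPA5 was at 0.

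The pathway that induces the members was represented by 17 BMP and WNT genes, of which 15 were tested. In oeDAZL 11 were higher and 4 lower with 0 called, and the median log2 fold change was 0.11 as deposited and between 0.13 and 0.21 under the other scalings and with each library left out. At an unadjusted P of at most 0.05 limma gave 6 higher and 2 lower, and 0 after adjustment. The list summed to 2227 and 2179.7 TPM in control and to 2630.3 and 2569 TPM in oeDAZL, with ID1 taking 37.1%. BMP4, the ligand that induces PGCs, was at 271 and 248 TPM in control and at 154 and 170.3 TPM in oeDAZL. Both oeDAZL libraries were far under control, and the log2 fold change was −0.68 (SE 0.07) with an adjusted p of 0.0836 in limma.

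The ID genes, direct targets of BMP signalling through SMAD proteins, lay on the opposite side. ID1 was at 828 and 749 TPM in control and at 1008 and 978 TPM in oeDAZL. ID4 was at 38.2 and 40.7 TPM in control and at 53.4 and 52.9 TPM in oeDAZL. For all 4 ID genes both oeDAZL libraries were higher, with log2 fold changes of 0.33 for ID1, 0.36 for ID2, 0.53 for ID3 and 0.42 for ID4 and adjusted p-values of 0.0962, 0.0896, 0.104 and 0.0896 in limma. LEF1, a mediator of WNT signalling, was at 48.2 and 44.1 TPM in control and at 33.1 and 36.8 TPM in oeDAZL, with a log2 fold change of −0.39 and an adjusted p of 0.110 in limma. Thus 0 genes of this pathway and 0 of the members passed adjustment in the main fit. With libraries of unlike replicate number paired as a block (the crossed pairing), chosen after seeing the data, more genes passed. These were 7 of the pathway, 1 member (PDPN) and 1089 of all tested genes. Without control 1, the log2 fold change was −0.62 for BMP4, 0.41 for ID1, 0.38 for ID2, 0.37 for ID3 and 0.38 for ID4.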

How the data were processed

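RNA sequencing of 2 control and 2 oeDAZL libraries was analysed; the 6 miRNA libraries were not analysed here. The authors deposited TPM per gene, made with HISAT2 2.1.0 on hg38 and StringTie 2.1.4, after trimming with Trim Galore 0.6.4 as the submitters' processing notes give it. The annotation release is not given in the sources used here. TPM keeps no read depth, so depth is unknown and precision comes from the spread between libraries. Of 65003 entries, 45 copies on chromosome Y and 18 repeats were left out. Where a symbol had several entries, the most abundant was used.

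Values were taken as log2(TPM + 1). Genes whose mean TPM reached 1 entered limma 3.58.1 (R 4.3.3, eBayes with trend) without covariates, and p-values were adjusted over all 16687 genes. Counts, members, list genes and list medians were recomputed with a pseudocount of 0.1, no filter, a mean TPM of at least 5, median-of-ratios scaling, quantile normalization, TPM without mitochondrial genes, the replicate number as a block, no trend (all but medians), and each library left out. Called genes were also counted by adjusted p.

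The members and the 11 comparison lists were chosen with earlier results of these data known, so no list was tested. The rule for named genes takes all members, DAZL, called and most abundant genes of each list, and genes that set a member beside other cell types; further list genes, such as BMP4, LEF1, the ID genes and CER1, were named after their values were seen. TDRD12 was not matched. Positions and overlaps come from GENCODE 44.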

Additional observations from a re-analysis of the deposited data

How the results depend on the processing

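No member was called under any alternative run, and DAZL stayed between 6.63 and 9.78. Of all genes, 21 were called higher and 94 lower. A pseudocount of 0.1 gave 55 and 267, a filter at 5 TPM 6 and 23 (it tests fewer genes), quantile normalization 41 and 52, and calls by adjusted P 3 and 2. Leave-one-out fits ran from 35 to 87 higher and from 85 to 235 lower, and the lone library of a group is then assumed to vary like the other group. The members' median of −0.12 was −0.038 with median-of-ratios scaling and −0.026 with quantile normalization, and ran from −0.19 to −0.041 with libraries left out. SOX17 turned positive with median-of-ratios scaling (0.059), quantile normalization (0.17) and TPM without mitochondrial genes (0.0099), and ran from −0.16 to 0.15 with libraries left out. DPPA3 did so with a pseudocount of 0.1 (0.054), median-of-ratios scaling (0.039), quantile normalization (0.17) and TPM without mitochondrial genes (0.0041), and ran from −0.45 to 0.43. ALPL did so with median-of-ratios scaling (0.015) and ran from −0.19 to 0.059. The causes were not tested. At 5 TPM, SOX17, PRDM1, NANOS3 and DPPA3 were under the filter. With the replicate number as a block, 26 genes were called higher, 99 lower and 0 members, and no call of a member or of DAZL changed; deviations of same-numbered libraries had r = −0.10 across 16687 genes. With the crossed pairing as a block, chosen after seeing the data, 28 were called higher, 107 lower and 0 members, with an adjusted p under 0.05 at any fold for 1 member, 21 of 71 genes of the comparison lists and 1089 of all tested genes. Unknown depth limits what can be said of members near 1 TPM.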

Other observations

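Primitive streak and mesoderm genes, which mark the cells from which PGCLCs arise in culture, were at 14.6 TPM or less in all 4 libraries. Of 9 such genes 5 were tested, with 0 higher, 5 lower and 0 called, and the median log2 fold change was −0.28 as deposited, −0.11 with quantile normalization, −0.13 without control 1 and −0.39 without oeDAZL 2. At an unadjusted P of at most 0.05 limma gave 1 lower gene, and 0 after adjustment. The list summed to 31.4 and 24.7 TPM in control and to 20.3 and 22.7 TPM in oeDAZL, with PDGFRA, a receptor of mesoderm, taking 49.7%. TBXT, the streak factor brachyury, was at 2.49 and 1.25 TPM in control and at 0.319 and 0.546 TPM in oeDAZL. Both oeDAZL libraries were lower, with a log2 fold change of −0.97 (SE 0.30) and an adjusted p of 0.173 in limma, −0.66 without control 1, and −1.85 with a pseudocount of 0.1 and −1.04 with TPM without mitochondrial genes, where it was called lower. EOMES, which acts upstream of SOX17 in human PGC induction, was at 1.02 and 0.600 TPM in control and at 0.408 and 0.744 TPM in oeDAZL, with the groups overlapping.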
